A study of Homo sapiens with 12 samples.

Results

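The data describe what putting BRG1 back did to untreated SW-13 cells. SW-13 is an established line from an adrenocortical cancer that lacks BRG1 protein. Its cells were infected with an adenovirus that carries BRG1 fused to GFP (Ad-BRG1) or with a control adenovirus that carries GFP (Ad-GFP), so every group carried a virus and its reporter, and the methods of the study state that the BRG1 virus was titrated to give the protein level of HeLa cells. The members are the 3 untreated Ad-BRG1 arrays and the 3 untreated Ad-GFP arrays, chosen by their titles, which makes 6 of the 12 arrays of the series. The other 6 arrays hold the same viruses after 6 h of interferon gamma (IFNγ), 3 per virus, and were used here to measure the same virus difference on arrays that the untreated comparison did not use. RNA was read on Illumina Human-WG6 BeadChips, and 10333 of the 18665 genes named on the array were detected on all 3 arrays of at least 1 of the 4 groups and were tested. Of these, 10081 were detected throughout at least 1 untreated group.

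BRG1, encoded by SMARCA4, is an ATPase of SWI/SNF, the complex that uses ATP to slide or evict nucleosomes and so changes which promoters and enhancers transcription factors can reach. The related ATPase BRM, encoded by SMARCA2, can occupy the same place in the complex, and cells that lack both are a known setting in which adding BRG1 back flattens the cells and slows growth. The complex works against Polycomb repression at many developmental and signalling genes, and it also cooperates with inducible factors such as AP-1, serum response factor and heat shock factor.

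Raw mean intensity was 612 to 643 on the Ad-BRG1 arrays and 627 to 666 on the Ad-GFP arrays, and 15818 to 16828 probes per untreated array were above background. Across the 10333 genes, which are not independent replicates, Ad-BRG1 arrays correlated with each other at r 0.995 to 0.997, Ad-GFP arrays at 0.997 to 0.998, and arrays of different viruses at 0.962 to 0.967. The first principal component of the 6 arrays held 87.7% of the variance and parted the viruses. The second held 4.88%, and along it Ad-BRG1 replicate 3 stood apart, at -13.4 against 4.71 and 7.79 for replicates 1 and 2. Ad-GFP replicate 3 lay on the same side, at -4.88 against 1.8 and 3.95 for Ad-GFP replicates 1 and 2. SMARCA4 (gene identifier 6597) read 8.43, 8.49 and 8.61 on the Ad-BRG1 arrays and 8.81, 8.57 and 8.73 on the Ad-GFP arrays in normalized log2 intensity, a difference of -0.20 (95% interval -0.41 to 0.02, limma adjusted p = 0.109). Where its probe lies relative to the cDNA in the virus is not known here, so it does not check the virus labels. SMARCA2 was not among the genes tested. Of 16 adrenal cortex markers 3 were tested, SCARB1, FDX1 and CYP11A1, while the steroidogenic genes STAR, CYP17A1 and CYP11B1 and their regulator NR5A1 were not detected throughout any group, so the arrays show few marks of adrenal cortex. Of 11 leukocyte, 8 endothelial and 11 epithelial markers 1, 3 and 1 were tested. Of 10 fibroblast markers 6 were tested and 3, COL1A1, PDGFRB and THY1, rose 2-fold or more, with COL1A2, DCN, FAP and POSTN not detected throughout any group. The summed normalized intensity of the fibroblast list on the linear scale was 4500 to 4755 on the Ad-BRG1 arrays and 3644 to 4057 on the Ad-GFP arrays, and their part in the rises of contractile and matrix genes was not tested. The summed level of the adrenal list was 1969 to 2426 with Ad-BRG1 and 1480 to 1585 with Ad-GFP, that of the endothelial list 305 to 334 with Ad-BRG1 and 186 to 232 with Ad-GFP, and that of the leukocyte list, CD79A alone, 116 to 144 with Ad-BRG1 and 96.9 to 109 with Ad-GFP.

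Restored BRG1 went with changes across the transcriptome, with the large ones mostly upward. The linear model fitted with limma called 5900 of the 10333 genes (57.1%) at an adjusted p under 0.05, 2764 of them higher with Ad-BRG1 (26.7%) and 3136 lower (30.3%). Most calls were small, since 1579 of the genes called higher and 2121 of those called lower differed by less than 1.5-fold, at a median standard error (SE) of 0.09 on the log2 scale. At 2-fold or more, 500 genes were higher (4.84%) and 228 lower (2.21%). At 4-fold or more the counts were 98 and 4, and at 8-fold or more 38 and 0. The median log2 difference of all genes was -0.03. Without background correction the calls were close in number, 2762 higher and 3047 lower with average normalization and 2814 and 3187 with quantile normalization, but the 2-fold counts were smaller, 218 and 74 with the first and 223 and 71 with the second. The arrays of the viruses did not overlap for 3051 genes that were higher (29.5%) and 3441 that were lower (33.3%) with Ad-BRG1. For 103 of the 500 genes 2-fold or more higher, no Ad-GFP array was above background, and for 5 of the 228 genes 2-fold or more lower (C19orf73, CHD5, DGCR5, RSPH4A and SNCB), no Ad-BRG1 array was. In such cases the fold is a lower bound against the lowest value detected on each array and is written as at least. In RNA from whole cultures, fewer cells with a transcript and less of it per cell cannot be told apart.

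**Figure D1:**
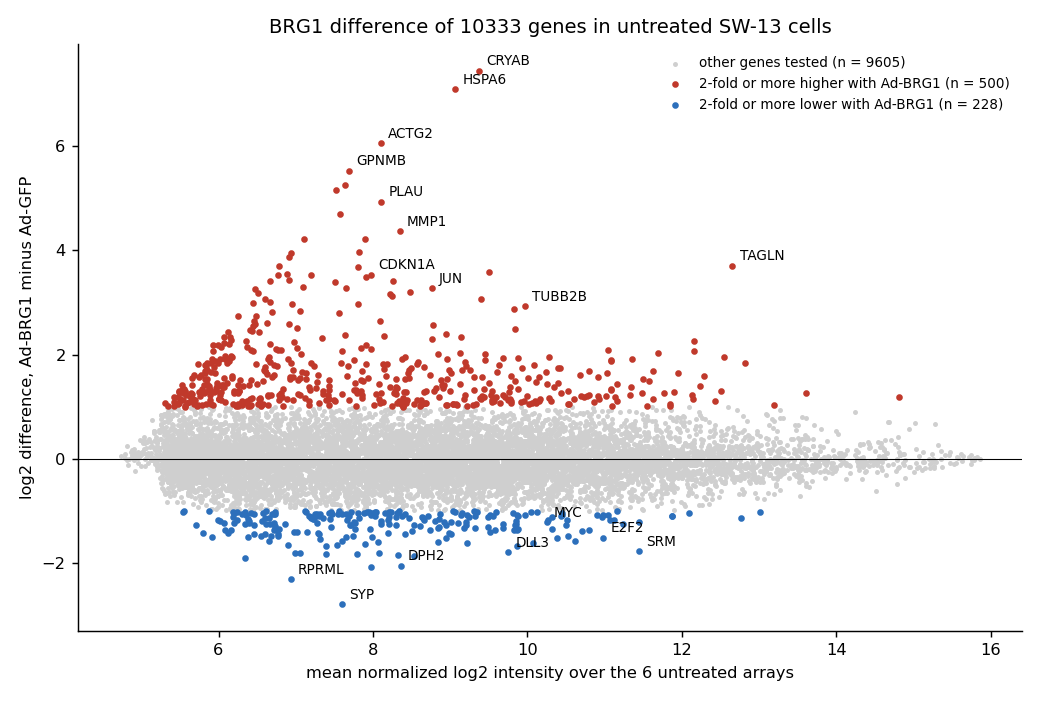
Each point is 1 of the 10333 genes tested, with its mean normalized log2 intensity over the 6 untreated arrays on the x axis and its log2 difference, Ad-BRG1 minus Ad-GFP, on the y axis. Red marks the 500 genes 2-fold or more higher and blue the 228 genes 2-fold or more lower, and the points above 0 reach 7.46 (CRYAB) while those below reach -2.80 (SYP).

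Most of the largest rises were in genes near or below background without BRG1. The arrays of the viruses did not overlap for any gene given here with its array values other than SMARCA4 and VEGFA. CRYAB (gene identifier 1410), the small heat shock chaperone alphaB-crystallin, read 13.25, 13.13 and 12.94 on the Ad-BRG1 arrays and 5.63, 5.76 and 5.56 on the Ad-GFP arrays, a 176-fold rise (log2 difference 7.46, SE 0.09, limma adjusted p = 3.65e-14). HSPA6 (gene identifier 3310), an HSP70 chaperone made only under stress in most cells, read 12.68, 12.67 and 12.50 with Ad-BRG1 and 5.54, 5.45 and 5.55 with Ad-GFP, 137-fold higher (7.10, SE 0.13). Both thus sat among bright genes of the array in all Ad-BRG1 samples and close to background in all Ad-GFP samples. GPNMB, a glycoprotein of lysosomes and melanosomes, read 10.54, 10.46 and 10.39 with Ad-BRG1 against 5.04, 4.93 and 4.81 with Ad-GFP and rose at least 34.0-fold. ADGRG1, an adhesion G protein-coupled receptor, read 10.22, 10.37 and 10.23 with Ad-BRG1 against 5.03, 5.0 and 5.02 with Ad-GFP and rose at least 29.8-fold. LY96, which encodes MD-2, the partner of TLR4 in sensing lipopolysaccharide, read 9.73, 9.76 and 9.90 with Ad-BRG1 against 5.66, 5.73 and 6.11 with Ad-GFP and rose 15.6-fold. EMP1, an epithelial membrane protein, was clearly expressed in both groups, at 11.37, 11.29 and 11.22 with Ad-BRG1 and 7.49, 7.84 and 7.79 with Ad-GFP, and still rose by 3.59 on the log2 scale. The other leading rises were ACTG2, PLAU, ACTA2, IFITM3, MMP1, IFITM2, S100A16, TAGLN, SERPINE2 and CCL26, which are described with their groups. IFITM2 and IFITM3 are near-identical paralogs, so a probe for one may also read the other.

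**Figure D2:**
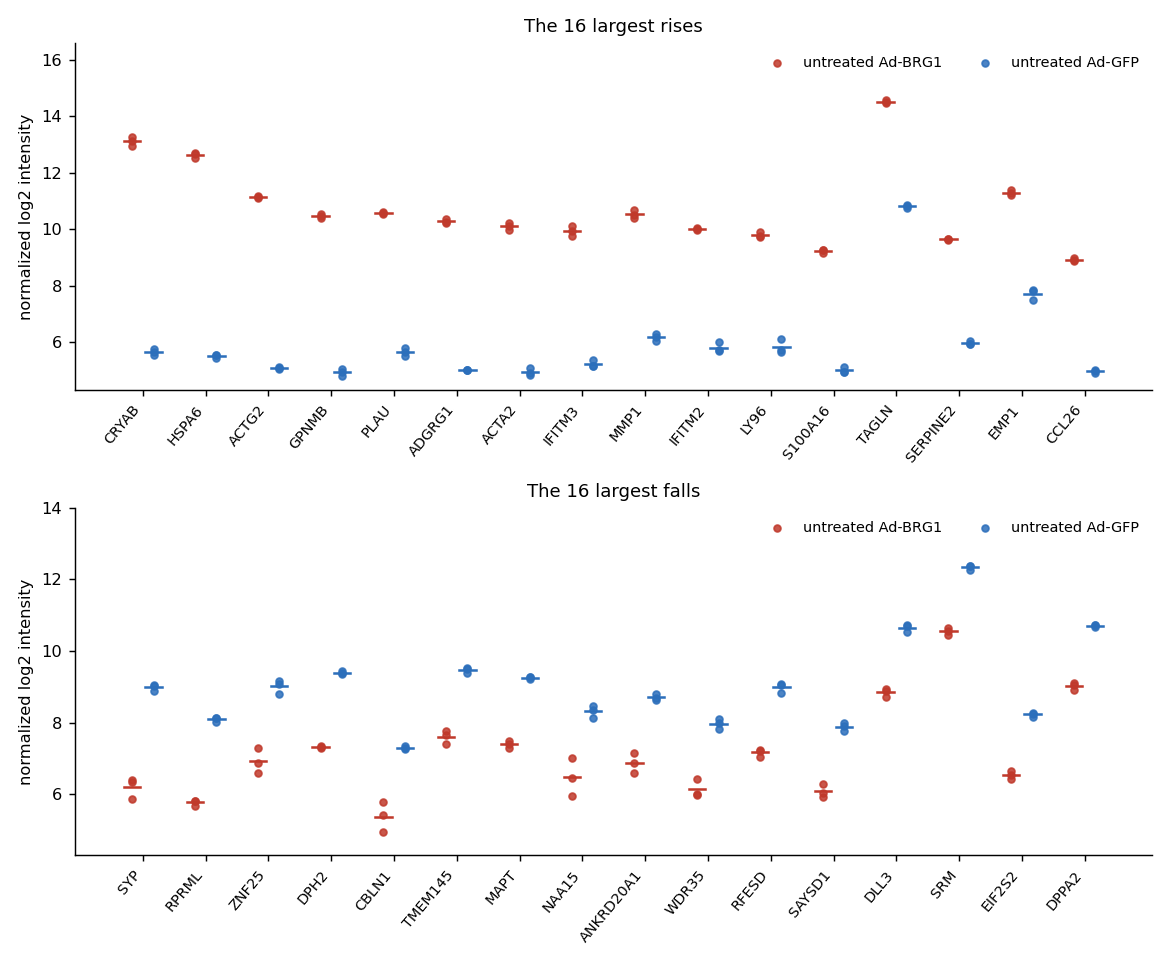
Normalized log2 intensity (y axis) of the 16 largest rises (top) and the 16 largest falls (bottom), with a point for each of the 3 Ad-BRG1 arrays (red, left) and the 3 Ad-GFP arrays (blue, right) and a bar at each group mean. No gene shown has overlapping groups, and the Ad-BRG1 arrays of NAA15 spread from 5.95 to 7.01, wider than those of most other genes shown.

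Within the heat shock group, the largest rises lay in inducible and small heat shock proteins, and constitutive chaperones gave small or mixed values. Lists are counted over their tested members as a description, since some members passed the detection filter through the Ad-BRG1 arrays alone. Of 38 listed genes 32 were tested, of which 17 were called higher (26.7% of all genes) and 2 lower (30.3%), with 9 at 2-fold or more higher (4.84%), 1 at 2-fold or more lower (2.21%) and a median log2 difference of 0.23, against -0.03 over all genes. HSPB3, a small heat shock protein of muscle, read 8.65, 8.63 and 8.62 on the Ad-BRG1 arrays and 5.01, 4.82 and 4.98 on the Ad-GFP arrays, at least 9.57-fold higher. HSPB2 differed by 1.97, the inducible HSP70 genes HSPA1A and HSPA1B, which are near-identical copies, by 1.96 and 1.84, the HSP40 co-chaperone DNAJB1 by 1.89 and the BAG3 co-chaperone by 1.22 on the log2 scale. The constitutive cytosolic chaperone genes HSPA8 and HSP90AB1 were not called, at 0.06 and -0.06, and neither was the mitochondrial HSPE1, at -0.01. The probes of HSP90AA1 disagreed, with the brightest not called (0.13), another lower (-0.96) and another higher (0.35), and for the mitochondrial HSPD1 the brightest was not called (0.10) and another was lower (-0.34). HSF1, the heat shock factor that drives the response, was not called either (0.13). HSPA1L, an HSP70 gene expressed mainly in testis, fell 2.43-fold, reading 7.15, 7.10 and 6.96 on the Ad-BRG1 arrays and 8.35, 8.36 and 8.35 on the Ad-GFP arrays.

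The HSPA6 promoter is shown because HSPA6 has the second largest rise and its promoter holds 3 matches to the heat shock element that heat shock factors bind. The sequence runs from 250 bases before to 50 after the RefSeq start site (GRCh38.p14, chr1:161524290-161524589, plus strand), and capitals mark GAANNTTC or TTCNNGAA, which first match at -180, -74 and -69 from the start.
HSPA6: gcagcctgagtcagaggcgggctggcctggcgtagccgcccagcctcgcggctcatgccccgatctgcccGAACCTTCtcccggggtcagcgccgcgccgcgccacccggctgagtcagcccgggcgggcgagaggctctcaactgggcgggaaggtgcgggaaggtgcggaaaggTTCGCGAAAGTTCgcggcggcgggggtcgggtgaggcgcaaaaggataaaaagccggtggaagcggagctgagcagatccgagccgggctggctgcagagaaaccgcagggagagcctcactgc
The matches at -74 and -69 overlap into a row of 3 alternating units. Promoters of RefSeq were found by gene identifier for 8506 of the 10333 genes tested. A heat shock element on either strand was present in 41 of 394 promoters of genes 2-fold or more higher (10.4%), in 9 of 180 promoters of genes 2-fold or more lower (5%) and in 874 of the 8506 (10.3%). In the heat shock list it was present in 11 of 27 promoters (40.7%), and in 6 of the 15 that belonged to genes called higher (40%). HSPA8 and DNAJA1, which were not called, held 4 and 3 matches, and CHORDC1, higher by only 0.25, held 6. Matches are letters in a window of 300 bases and do not show binding.

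Smooth muscle actins and actin-bundling genes rose together. Of 32 listed genes 25 were tested, and 21 were called higher and 2 lower (84% and 8%, against 26.7% and 30.3% of all genes). Of these, 10 were 2-fold or more higher (4.84% of all genes). The median log2 difference was 0.90, or 0.82 with groups below background set to their bounds. ACTG2, the gamma actin of enteric smooth muscle, read 11.12, 11.17 and 11.11 on the Ad-BRG1 arrays and 5.12, 5.05 and 5.07 on the Ad-GFP arrays and rose at least 54.2-fold. ACTA2, the alpha actin of vascular smooth muscle and myofibroblasts, read 9.98, 10.23 and 10.12 with Ad-BRG1 against 4.89, 4.84 and 5.10 with Ad-GFP and rose at least 26.7-fold. Neither actin was above background on any Ad-GFP array. TAGLN, which encodes the actin-binding protein transgelin, was bright in both groups, at 14.49, 14.56 and 14.48 with Ad-BRG1 and 10.85, 10.75 and 10.81 with Ad-GFP, and rose 13.1-fold (log2 difference 3.71, SE 0.06, limma adjusted p = 1.88e-13). The rise extended to calponin CNN1 (at least 3.78-fold), tropomyosin TPM1 (4.79-fold), the alpha-actinin ACTN4 (3.35-fold) and the serum response factor coactivator MRTFA (2.23-fold). The nonmuscle actin gene ACTB was higher by 0.32, and of the probes of ACTG1 the brighter was not called (0.04) and the other was higher (0.34). SRF, which encodes serum response factor, read 10.92, 10.86 and 11.02 with Ad-BRG1 and 11.09, 11.17 and 11.18 with Ad-GFP and was called lower (-0.21, limma adjusted p = 0.0235), a call lost without Ad-BRG1 replicate 1 or 2 or Ad-GFP replicate 2 or 3 (adjusted p = 0.0584 to 0.0893).

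The ACTG2 promoter is shown because ACTG2 has the largest rise of the group and its promoter holds 2 CArG boxes, the sites of serum response factor, in capitals and starting at -110 and -73 (GRCh38.p14, chr2:73892758-73893057, plus strand).
ACTG2: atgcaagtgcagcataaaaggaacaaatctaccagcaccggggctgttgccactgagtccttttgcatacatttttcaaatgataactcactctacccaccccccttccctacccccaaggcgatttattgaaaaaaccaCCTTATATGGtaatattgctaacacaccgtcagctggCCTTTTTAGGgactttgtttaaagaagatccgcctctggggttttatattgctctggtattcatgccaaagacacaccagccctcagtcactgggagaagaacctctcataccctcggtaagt
CArG boxes were present in 6 of 22 promoters of the contractile list (27.3%), against 87 of the 8506 promoters of genes tested (1.02%), 6 of 394 for genes 2-fold or more higher (1.52%) and 2 of 180 for genes 2-fold or more lower (1.11%). Besides ACTG2 they were those of MYLK and TPM4, which were called higher, ACTG1, whose brighter probe was not called, and CNN2 and SRF, which were called lower. The CNN2 call (-0.28) was lost when the probes of the gene were averaged (adjusted p = 0.181).

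Adhesion, matrix and protease genes moved in the same direction as the contractile genes. In the list of integrins, focal adhesion and caveolae, 19 of 27 genes were tested, and 13 were called higher and 1 lower. These shares were 68.4% and 5.26%, against 26.7% and 30.3% of all genes, and the median was 0.52 (0.46 with bounds). ITGA5, the fibronectin receptor subunit, read 10.49, 10.54 and 10.57 on the Ad-BRG1 arrays and 8.57, 8.71 and 8.90 on the Ad-GFP arrays (3.49-fold higher), ITGB5, a vitronectin receptor subunit, rose 3.80-fold, and the adaptor BCAR1 rose 2.94-fold. The most common integrin beta chain, ITGB1, was not called (0.16), and ITGB4, the laminin-binding partner of hemidesmosomes, was 1.98-fold lower. Of 13 tested of 17 YAP and TEAD targets, 10 were called higher and 2 lower (76.9% and 15.4%, median 0.59). AXL, a receptor tyrosine kinase, read 8.04, 8.31 and 8.06 with Ad-BRG1 against 5.06, 5.18 and 4.98 with Ad-GFP and rose at least 6.79-fold, and the matricellular gene CCN1 read 12.10, 12.02 and 11.95 with Ad-BRG1 against 10.16, 10.13 and 10.17 with Ad-GFP and rose 3.65-fold. Its relative CCN2, already among the brightest genes of the array, was 1.29-fold lower, at 14.71, 14.80 and 14.63 with Ad-BRG1 and 15.05, 15.07 and 15.11 with Ad-GFP. The YAP relative TAZ, encoded by WWTR1, rose at least 1.84-fold. The coactivator YAP1 itself was called lower (-0.32, limma adjusted p = 0.0189), although not without Ad-BRG1 replicate 1 (adjusted p = 0.0852).

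Of 45 extracellular matrix genes 19 were tested, 16 called higher and 0 lower (84.2% and 0%, against 26.7% and 30.3% of all genes). The median was 0.45 (0.38 with bounds). LOXL4, a collagen cross-linking oxidase, read 8.85, 8.98 and 9.07 on the Ad-BRG1 arrays and 5.35, 5.32 and 5.65 on the Ad-GFP arrays (11.5-fold higher). COL1A1, the main chain of type I collagen, rose at least 8.96-fold and the laminin chain LAMB1 at least 4.31-fold, both from levels not above background. Beside these rises, COL3A1 and LUM, which fibroblasts make in large amounts, were not called (-0.10 and -0.02). In the list of matrix proteases and their inhibitors, 20 of 34 genes were tested. Of these, 12 were called higher and 2 lower (60% and 10%, median 0.45). PLAU, the urokinase that activates plasminogen, read 10.57, 10.61 and 10.55 with Ad-BRG1 against 5.49, 5.65 and 5.77 with Ad-GFP and rose 30.7-fold. MMP1, the interstitial collagenase, read 10.41, 10.68 and 10.50 with Ad-BRG1 against 6.17, 6.04 and 6.27 with Ad-GFP and rose 20.7-fold, while MMP10 read 12.75, 12.81 and 12.79 with Ad-BRG1 against 13.28, 13.26 and 13.17 with Ad-GFP and fell 1.37-fold. Inhibitors rose beside the proteases: SERPINE2, which blocks urokinase and thrombin, read 9.66, 9.60 and 9.65 with Ad-BRG1 against 6.03, 5.92 and 5.94 with Ad-GFP and rose 12.8-fold, and TIMP2 rose 2.31-fold. The urokinase receptor gene PLAUR was not called (0.05).

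Among cadherins and junction genes, 17 of 43 were tested, and 12 were called higher and 3 lower (median 0.38). These shares were 70.6% and 17.65%, against 26.7% and 30.3% of all genes. Among them were N-cadherin CDH2 (2.43-fold higher) and the nectin NECTIN2 (2.23-fold higher), with the tight junction scaffold TJP1 1.5-fold lower. Of 24 intermediate filament and lamin genes 11 were tested, 7 called higher and 1 lower (63.6% and 9.09%). The median was 1.30, or 1.24 with bounds. NES, which encodes the filament protein nestin of progenitor cells, read 8.32, 8.52 and 8.26 on the Ad-BRG1 arrays and 5.06, 4.85 and 4.96 on the Ad-GFP arrays and rose at least 7.97-fold. KRT18, a keratin of simple epithelia and the only epithelial marker tested, read 8.11, 8.21 and 8.29 with Ad-BRG1 against 5.4, 5.67 and 5.76 with Ad-GFP and rose 6.02-fold (275 to 314 with Ad-BRG1 and 42.3 to 54.1 with Ad-GFP on the linear scale). The lamin A gene LMNA rose 3.13-fold, whereas the B-type lamins LMNB1 and LMNB2 were not called (-0.10 and 0.02). Of 27 S100 and annexin genes 15 were tested, 7 called higher and 1 lower (46.7% and 6.67%, median 0.09). The rises were led by the calcium-binding S100A16, at 9.26, 9.27 and 9.14 with Ad-BRG1 against 4.94, 5.11 and 4.96 with Ad-GFP (at least 14.4-fold higher), S100A13 (5.17-fold) and S100A4 (at least 5.12-fold), and ANXA1 and ANXA5 were not called (-0.06 and 0.09). Of the dimmer probes of S100A13, 1 was higher (3.37) and 2 were not called (0.09 and 0.17).

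**Figure D3:**
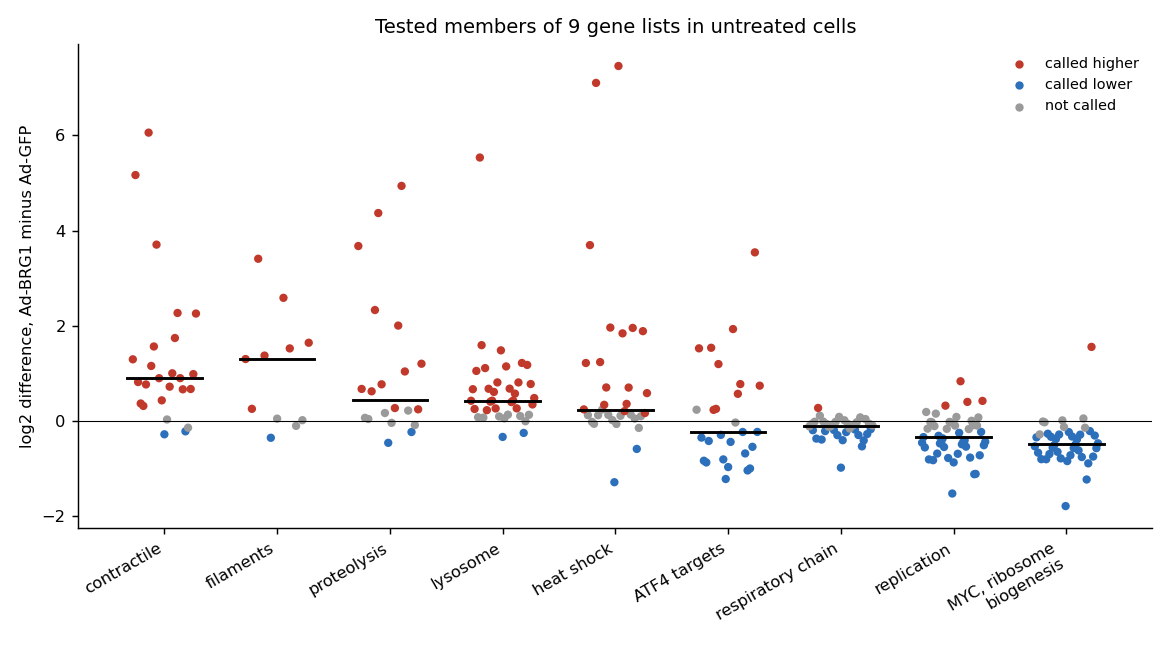
Log2 difference, Ad-BRG1 minus Ad-GFP (y axis), of every tested member of 9 gene lists (x axis), coloured by the limma call, with a black bar at the median of each list. The medians run from 1.30 for filaments and 0.90 for contractile genes to -0.33 for replication genes and -0.48 for MYC and ribosome biogenesis.

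Immediate early genes split. Of 29 AP-1 and immediate early factors 20 were tested, 8 called higher and 5 lower (40% and 25%, against 26.7% and 30.3% of all genes, median 0.23). JUN, the AP-1 subunit c-Jun, read 10.36, 10.40 and 10.42 on the Ad-BRG1 arrays and 7.08, 7.12 and 7.17 on the Ad-GFP arrays and rose 9.67-fold (log2 difference 3.27, SE 0.10, limma adjusted p = 5.55e-11). ATF3, a stress-induced partner of Jun proteins, read 9.37, 9.42 and 9.09 with Ad-BRG1 against 6.36, 6.54 and 6.06 with Ad-GFP and rose 7.84-fold, and the endothelial shear-stress factor KLF2 rose 2.79-fold. FOS, the usual partner of JUN, was not called (0.18). JUNB, which can oppose JUN, fell 1.72-fold, and EGR1, a serum-induced zinc finger factor, read 10.49, 10.44 and 10.37 with Ad-BRG1 against 11.41, 11.54 and 11.63 with Ad-GFP and fell 2.13-fold. The inhibitors of MAP kinase signalling also split, with 8 of 20 tested (25 listed) called higher and 8 lower (40% each, median 0.11). DUSP5, a nuclear ERK phosphatase, read 9.31, 9.45 and 9.21 with Ad-BRG1 and 7.03, 6.96 and 6.93 with Ad-GFP (5.10-fold higher), and the EGF receptor inhibitor ERRFI1 and the survival-linked PHLDA1 rose 5.07-fold and 6.00-fold. The ERK-induced genes DUSP6, SPRY2 and ETV5 were 1.70-fold, 1.48-fold and 2.55-fold lower.

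Promoters with an AP-1 site (TGANTCA, the same on both strands) were 40 of 394 among genes 2-fold or more higher (10.2%), against 6 of 180 among genes 2-fold or more lower (3.33%) and 358 of 8506 among all genes tested (4.21%). The share is a description, and no test was made of it. The 40 genes include HSPA6, GPNMB, EMP1, HSPB3, ITGA5, ACTN4, CD63, BCAR1 and MT2A. In the protease list the site was found in PLAUR and MMP10 (2 of 14 promoters) and in 0 of 9 promoters of genes called higher. The promoters of GPNMB (chr7:23246525-23246824) and EMP1 (chr12:13196476-13196775), both GRCh38.p14 and plus strand, are shown as those of leading rises that hold the site, with AP-1 matches in capitals, starting at -134 in GPNMB and at -175 and -48 in EMP1.
GPNMB: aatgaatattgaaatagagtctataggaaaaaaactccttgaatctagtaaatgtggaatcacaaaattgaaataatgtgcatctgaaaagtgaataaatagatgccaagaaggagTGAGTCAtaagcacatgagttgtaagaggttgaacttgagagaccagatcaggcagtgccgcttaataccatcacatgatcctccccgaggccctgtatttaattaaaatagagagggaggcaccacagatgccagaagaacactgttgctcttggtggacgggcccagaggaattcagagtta
EMP1: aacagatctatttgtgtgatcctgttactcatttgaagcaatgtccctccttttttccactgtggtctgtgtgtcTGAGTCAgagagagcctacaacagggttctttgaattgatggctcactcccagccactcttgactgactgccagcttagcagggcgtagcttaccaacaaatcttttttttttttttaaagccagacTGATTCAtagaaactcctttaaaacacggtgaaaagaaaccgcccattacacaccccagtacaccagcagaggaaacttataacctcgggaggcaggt

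Among cell cycle genes, some inhibitors were called higher and 27 of 47 replication genes lower. Of 29 cell cycle brakes and p53 targets 19 were tested, 9 called higher, 0 lower and 10 not called (median 0.15). The share called higher was 47.4%, against 26.7% of all genes. CDKN1A, the cyclin-dependent kinase inhibitor p21, read 9.74, 9.74 and 9.73 on the Ad-BRG1 arrays and 6.04, 6.14 and 6.43 on the Ad-GFP arrays and rose 11.6-fold. GADD45A, a stress and DNA damage response gene, read 10.86, 10.97 and 10.97 with Ad-BRG1 against 7.92, 7.80 and 7.90 with Ad-GFP and rose 8.34-fold, and CDKN1C, which encodes p57, rose at least 2.24-fold. The retinoblastoma gene RB1 was not called (-0.15), and the probes of the inhibitor gene CDKN1B disagreed, with the brighter not called (0.13) and the other higher (0.36). Of 52 genes of the G1 to S transition and DNA replication 47 were tested, 27 called lower and 4 higher. These shares were 57.45% and 8.51%, against 30.3% and 26.7% of all genes. There were 3 at 2-fold or more lower (2.21% of all genes), and the median was -0.33. E2F2, an activator of S phase genes, read 10.15, 10.24 and 10.29 on the Ad-BRG1 arrays and 11.71, 11.75 and 11.77 on the Ad-GFP arrays and fell 2.87-fold (log2 difference -1.52, SE 0.06, limma adjusted p = 1.17e-09). Cyclin D1, CCND1, read 11.32, 11.35 and 11.27 with Ad-BRG1 against 12.41, 12.48 and 12.40 with Ad-GFP and fell 2.16-fold, while cyclin D3, CCND3, read 12.57, 12.58 and 12.81 with Ad-BRG1 against 11.70, 11.79 and 11.96 with Ad-GFP and rose 1.79-fold. CDK6, the kinase that D cyclins activate, read 9.77, 9.56 and 10.33 with Ad-BRG1 against 10.95, 10.93 and 11.10 with Ad-GFP and fell 2.15-fold, with its Ad-BRG1 arrays the most spread of these genes. The helicase genes MCM2, MCM3, MCM4, MCM5, MCM6 and MCM7 were all called lower, at -0.55, -0.43, -0.31, -0.68, -0.77 and -0.45, and the brightest probe of the replication clamp PCNA was not called (-0.16), while other probes of it were lower (-0.62 and -0.77).

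E2F sites were looked for as TTTGGCGC and TTTCCCGC on both strands. They were present in 16 of 41 promoters of the replication list (39.0%), against 328 of the 8506 of all genes tested (3.86%), 9 of 394 for genes 2-fold or more higher (2.28%) and 7 of 180 for genes 2-fold or more lower (3.89%). Within the list they were present in 10 of 22 promoters of genes called lower (45.45%). Among genes called higher they were present in 2 of 4 (50%), those of CDT1 and CDC25A. The promoters of E2F2, the largest fall of the list, and MCM6, a helicase gene with 2 matches, are shown with the sites in capitals, starting at -42 in E2F2 (chr1:23531184-23531483) and at -152 and -90 in MCM6 (chr2:135876394-135876693), both GRCh38.p14 and minus strand.
E2F2: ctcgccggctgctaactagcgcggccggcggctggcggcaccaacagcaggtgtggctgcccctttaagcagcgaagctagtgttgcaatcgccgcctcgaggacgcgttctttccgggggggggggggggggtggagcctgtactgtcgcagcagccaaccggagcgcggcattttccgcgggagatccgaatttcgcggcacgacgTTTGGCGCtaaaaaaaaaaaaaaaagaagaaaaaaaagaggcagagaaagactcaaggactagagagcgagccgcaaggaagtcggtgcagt
MCM6: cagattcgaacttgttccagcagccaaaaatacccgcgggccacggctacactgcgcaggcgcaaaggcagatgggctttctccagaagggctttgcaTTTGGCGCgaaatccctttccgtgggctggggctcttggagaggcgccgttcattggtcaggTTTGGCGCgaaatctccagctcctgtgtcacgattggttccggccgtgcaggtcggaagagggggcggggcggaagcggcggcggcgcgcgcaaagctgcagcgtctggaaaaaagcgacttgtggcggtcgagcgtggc

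Of genes of G2 and mitosis all 47 listed were tested, 13 called lower and 4 higher (27.7% and 8.51%, against 30.3% and 26.7% of all genes), none by 2-fold or more, with a median of -0.12. The mitotic kinase genes CDK1 and AURKA were not called (-0.08 and 0.12), and neither was the cyclin gene CCNA2 (0.04), whereas the proliferation marker MKI67 fell by 0.65 on the log2 scale. The largest falls were in the motor genes KIF14, CENPE and KIF11, whose Ad-BRG1 arrays spread widely. KIF14 read 7.25, 6.73 and 7.57 on the Ad-BRG1 arrays and 8.15, 8.15 and 8.25 on the Ad-GFP arrays, CENPE 6.00, 5.64 and 6.24 with Ad-BRG1 against 6.96, 6.46 and 6.87 with Ad-GFP, and KIF11 9.67, 9.33 and 9.90 with Ad-BRG1 against 10.49, 10.29 and 10.37 with Ad-GFP. The CENPE call (-0.80, limma adjusted p = 0.0126) was lost without Ad-BRG1 replicate 2 (adjusted p = 0.0553) or Ad-GFP replicate 1 (0.0507). In all 3, Ad-BRG1 replicate 2 was lowest and replicate 3 highest. Ad-GFP replicate 2 was also the lowest of its group for CENPE and KIF11, and Ad-GFP replicate 3 the highest for KIF14. Histone genes were tested for 35 of 62, with 5 called higher and 7 lower (14.3% and 20%, against 26.7% and 30.3% of all genes, median -0.05). Most replication-dependent histones were not called, and the largest fall was MACROH2A1, the variant macroH2A of silent chromatin, at 12.12, 12.18 and 12.27 with Ad-BRG1 and 13.33, 13.27 and 13.41 with Ad-GFP (2.21-fold lower). Histone genes are near-identical copies, so their probes may read several members.

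Of the lists counted, MYC and ribosome biogenesis had the largest share called lower. There 32 of 40 tested genes (44 listed) were called lower and 1 higher, with a median of -0.48. These shares were 80% and 2.5%, against 30.3% and 26.7% of all genes. MYC, the growth-promoting transcription factor, read 9.58, 9.69 and 9.64 on the Ad-BRG1 arrays and 10.79, 10.84 and 10.94 on the Ad-GFP arrays and fell 2.34-fold (log2 difference -1.22, SE 0.07, limma adjusted p = 3.22e-08). SRM, spermidine synthase and a known MYC target, read 10.65, 10.57 and 10.44 with Ad-BRG1 against 12.37, 12.36 and 12.27 with Ad-GFP and fell 3.44-fold. DKC1, the pseudouridine synthase dyskerin of ribosomal RNA and telomerase, read 11.88, 11.74 and 11.72 with Ad-BRG1 against 12.68, 12.71 and 12.59 with Ad-GFP and fell 1.85-fold. The remaining falls were moderate and included the nucleolar proteins NCL (-0.49), FBL (-0.38) and NOP58 (-0.50) and the RNA polymerase I subunit POLR1B (-0.64). The only gene of the list that rose was MXD1, which competes with MYC for their shared partner, at 7.70, 7.80 and 7.71 with Ad-BRG1 against 6.38, 6.01 and 6.15 with Ad-GFP (2.95-fold), while of the probes of MAX, that partner, the brightest was not called (-0.12) and another was higher (0.45).

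**Figure D4:**
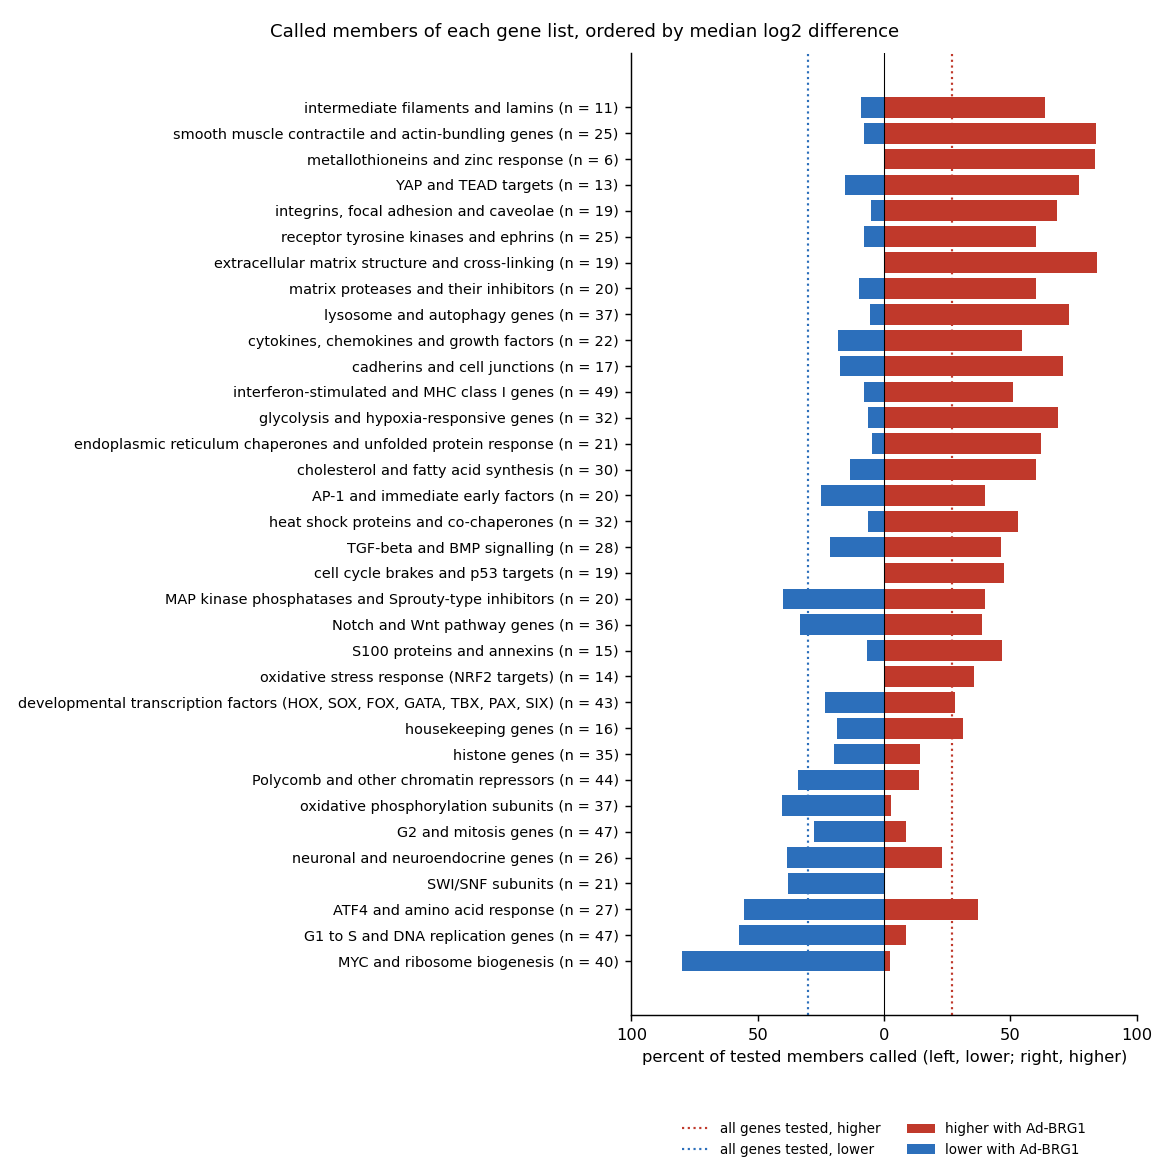
Percent of tested members called lower (blue, left) or higher (red, right) with Ad-BRG1 in each gene list, ordered by median log2 difference, with the number tested in parentheses and dotted lines at the share of all genes tested (26.7% higher, 30.3% lower). Filament and contractile genes have the highest medians of the gene lists other than cell type markers, and the MYC and ribosome biogenesis list, with 80.0% called lower, at the bottom.

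Metabolic and organelle genes differed by pathway. Of 44 lysosome and autophagy genes 37 were tested, 27 called higher and 2 lower (median 0.43). These shares were 73.0% and 5.41%, against 26.7% and 30.3% of all genes. Besides GPNMB the lysosome genes called higher included the tetraspanin CD63, at 10.68, 10.62 and 10.47 on the Ad-BRG1 arrays and 8.90, 9.09 and 8.99 on the Ad-GFP arrays (3.02-fold), the autophagy receptor SQSTM1 (2.80-fold) and the cholesterol exporters of the lysosome NPC1 and NPC2 (2.08-fold and 2.27-fold). The lysosomal membrane protein LAMP1 was not called (0.13), and the acid lipase LIPA was 1.26-fold lower. Of 35 genes of glycolysis and the hypoxia response 32 were tested, 22 called higher and 2 lower (68.75% and 6.25%, median 0.30). CA12, a hypoxia-induced carbonic anhydrase, read 10.37, 10.46 and 10.57 with Ad-BRG1 against 8.39, 8.49 and 8.46 with Ad-GFP (4.04-fold higher), the aldolase ALDOC rose 3.90-fold and the glucose transporter SLC2A1 2.07-fold. VEGFA, another hypoxia target, was called lower although its arrays overlapped between the viruses, at 6.30, 6.65 and 6.93 with Ad-BRG1 and 6.99, 6.82 and 7.45 with Ad-GFP, and its call (adjusted p = 0.0428) was lost in 7 of the 13 alternatives. In oxidative phosphorylation 37 of 44 subunit genes were tested, 15 called lower and 1 higher (median -0.11). These shares were 40.5% and 2.7%, against 30.3% and 26.7% of all genes, and cytochrome c, CYCS, was 1.97-fold lower. Of 36 genes of cholesterol and fatty acid synthesis and export 30 were tested. Of these, 18 were called higher and 4 lower (60% and 13.3%, median 0.25). ABCA1, which exports cholesterol from the cell, read 7.75, 7.66 and 7.96 with Ad-BRG1 against 5.23, 5.07 and 5.12 with Ad-GFP and rose at least 5.32-fold, the sterol demethylase CYP51A1 rose 2.03-fold, and FASN, the fatty acid synthase, fell 1.44-fold.

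Stress pathways other than heat shock differed from each other. In the ATF4 and amino acid response, 27 of 28 genes were tested, 15 called lower and 10 higher (median -0.23). These shares were 55.6% and 37.0%, against 30.3% and 26.7% of all genes. ATF4 itself was lower (-0.68), as were the serine and asparagine synthesis enzymes PSAT1 (1.99-fold) and ASNS (2.05-fold) and the factor CEBPB, at 10.77, 10.92 and 10.83 on the Ad-BRG1 arrays and 12.06, 12.02 and 12.07 on the Ad-GFP arrays (2.32-fold). The stress-induced chromatin protein NUPR1 read 6.83, 7.37 and 7.14 with Ad-BRG1 against 5.35, 5.14 and 5.04 with Ad-GFP and rose at least 3.33-fold. The lipoprotein receptor VLDLR rose at least 9.77-fold, at 8.68, 8.78 and 8.54 with Ad-BRG1 against 5.13, 5.18 and 5.04 with Ad-GFP, and the amino acid transporter subunit SLC3A2 rose 2.91-fold. Of 24 endoplasmic reticulum chaperone and unfolded protein response genes 21 were tested. Of these, 13 were called higher and 1 lower (61.9% and 4.76%, median 0.29). SERPINH1, the collagen chaperone HSP47, read 13.31, 13.12 and 13.14 with Ad-BRG1 against 11.16, 11.15 and 11.03 with Ad-GFP and rose 4.21-fold, DNAJC3, an inhibitor of the kinase PERK, rose 3.13-fold, whereas the main reticulum chaperone HSPA5 differed by 0.37 and HSP90B1 was not called (-0.02). Of 22 NRF2 targets 14 were tested, 5 called higher and 0 lower (median 0.07). The share called higher was 35.7%, against 26.7% of all genes. Ferritin light chain FTL was 2.41-fold and the quinone reductase NQO1 2.24-fold higher, and the heme oxygenase HMOX1 was not called (0.06). The zinc-binding metallothioneins were few, with 6 genes of a list of 10 tested and 5 called higher (83.3%, median 0.67). They were led by MT2A at 13.01, 12.92 and 12.86 with Ad-BRG1 against 11.45, 11.62 and 11.56 with Ad-GFP (2.62-fold). Metallothioneins are close paralogs whose probes may read each other.

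Basal expression of interferon-stimulated and MHC class I genes was higher for part of the list without any interferon given. Of 59 genes 49 were tested, 25 called higher and 4 lower (51.0% and 8.16%, against 26.7% and 30.3% of all genes). There were 6 at 2-fold or more higher (4.84% of all genes), and the median was 0.36. With groups below background set to their bounds the median was 0.14, and with a detection p under 0.01 required in an untreated group 16 genes were called higher. IFITM3, which blocks the entry of enveloped viruses, read 10.11, 9.94 and 9.74 on the Ad-BRG1 arrays and 5.16, 5.15 and 5.36 on the Ad-GFP arrays (at least 23.5-fold higher), and IFITM2 read 9.98 to 10.04 on the Ad-BRG1 arrays and 5.72, 5.67 and 5.98 on the Ad-GFP arrays (18.6-fold). IFI27 read 7.93, 8.0 and 7.85 with Ad-BRG1 against 5.49, 5.05 and 5.46 with Ad-GFP and rose 6.05-fold. IRF1 rose 1.48-fold, at 8.42, 8.62 and 8.52 with Ad-BRG1 against 7.90, 7.92 and 8.04 with Ad-GFP. Genes that serve the same antigen-processing pathway diverged, since the peptide transporter subunit TAP1 was higher (0.65) and TAP2 was lower by its brighter probe (-0.68, the other not called at -0.05), and the immunoproteasome subunit PSMB10 was 1.5-fold lower. The chemokine CXCL10 and the class II activator CIITA were not called (0.11 and 0.03).

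Secreted factors and receptors rose more often than they fell. Of 48 cytokines, chemokines and growth factors 22 were tested, 12 called higher and 4 lower (median 0.43, or 0.35 with bounds). These shares were 54.55% and 18.2%, against 26.7% and 30.3% of all genes. CCL26, the eosinophil chemokine eotaxin-3, read 8.90, 8.97 and 8.87 on the Ad-BRG1 arrays and 5.02, 4.91 and 4.97 on the Ad-GFP arrays and rose at least 11.6-fold. GDF15, a stress-induced member of the TGF-beta family, read 9.97, 9.84 and 9.62 with Ad-BRG1 against 6.72, 6.85 and 6.50 with Ad-GFP (8.69-fold), and HBEGF, a ligand of the EGF receptor, read 10.19, 10.02 and 9.97 with Ad-BRG1 against 7.45, 7.64 and 7.39 with Ad-GFP (5.93-fold). The ERBB ligand gene NRG1 fell 1.46-fold. Of 45 receptor tyrosine kinases and ephrins 25 were tested, 15 called higher and 2 lower (60% and 8%, median 0.47). The collagen receptor DDR1 was 2.99-fold and the ephrin receptor EPHB3 2.80-fold higher. ERBB3, the receptor for NRG1, read 5.36, 5.56 and 5.32 with Ad-BRG1 against 6.83, 6.72 and 6.96 with Ad-GFP and fell 2.68-fold. Dimmer probes of ERBB3 and NRG1 were not called (-0.16 and -0.01).

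In TGF-beta and BMP signalling, 28 of 43 genes were tested, 13 called higher and 6 lower (46.4% and 21.4%, against 26.7% and 30.3% of all genes, median 0.21). BAMBI, a decoy receptor that damps the pathway, read 8.60, 8.26 and 8.56 on the Ad-BRG1 arrays and 5.70, 5.43 and 5.79 on the Ad-GFP arrays and rose 7.12-fold. TGFB1I1, the focal adhesion adaptor Hic-5, rose 3.42-fold. Other inhibitors rose too, including SMAD7 (0.99), SMAD6 (0.84), PMEPA1 (1.27) and the activin-binding FSTL3 (2.60-fold), while the BMP target ID1 fell 1.69-fold and ID3 was higher (0.92). Notch and Wnt genes went both ways. Of 51 genes 36 were tested, 14 called higher and 12 lower (38.9% and 33.3%, against 26.7% and 30.3% of all genes, median 0.11), and with a detection p under 0.01 required in an untreated group 8 were called higher. The receptors NOTCH1, NOTCH2 and NOTCH3 were higher (0.96, 0.84 and 1.30), as were the fringe enzyme LFNG, which modifies them (3.06-fold), and the Wnt receptor FZD7 (3.30-fold by its brighter probe, with the other not called at -0.05). The Wnt ligand WNT5A fell 2.26-fold. DLL3, an inhibitory Notch ligand of neuroendocrine cells, read 8.89, 8.95 and 8.71 with Ad-BRG1 against 10.73, 10.71 and 10.53 with Ad-GFP and fell 3.49-fold. Of the Notch targets, HES1 was higher (0.67), and HEY1, HEY2 and HEYL were lower (-0.96, -0.58 and -0.71).

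The largest falls were smaller than the largest rises and included neuronal genes. SYP, synaptophysin of synaptic vesicles (gene identifier 6855), read 6.33, 6.4 and 5.86 on the Ad-BRG1 arrays and 9.04, 9.06 and 8.89 on the Ad-GFP arrays and fell 6.96-fold (log2 difference -2.80, SE 0.14, limma adjusted p = 6.12e-09). CBLN1, a secreted organizer of synapses, read 4.95, 5.41 and 5.78 with Ad-BRG1 against 7.28, 7.26 and 7.34 with Ad-GFP (3.77-fold lower), with Ad-BRG1 replicate 1 lowest and replicate 3 highest. Only 1 Ad-BRG1 array was above background for CBLN1, so the size of its fall is uncertain. MAPT, the microtubule-binding protein tau, read 7.29, 7.41 and 7.49 with Ad-BRG1 against 9.29, 9.21 and 9.27 with Ad-GFP (3.63-fold lower). Of 47 neuronal and neuroendocrine genes 26 were tested, 10 called lower and 6 higher (38.5% and 23.1%, against 30.3% and 26.7% of all genes, median -0.14). The direction was thus not shared. The granins CHGB and CHGA were lower (-1.10 and -0.60), whereas TUBB2B, a tubulin of the developing brain, read 11.40, 11.48 and 11.41 with Ad-BRG1 against 8.47, 8.56 and 8.48 with Ad-GFP and rose 7.60-fold, and neuron-specific enolase ENO2 rose 2.86-fold. SNAP25 and NCAM1 were not called (-0.20 and -0.19).

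Outside the neuronal list, RPRML, a relative of the cell cycle inhibitor reprimo, read 5.82, 5.81 and 5.68 on the Ad-BRG1 arrays and 8.03, 8.14 and 8.13 on the Ad-GFP arrays (5.01-fold lower). DPH2, an enzyme that makes the diphthamide residue of elongation factor 2, read 7.33, 7.36 and 7.29 with Ad-BRG1 against 9.35, 9.38 and 9.43 with Ad-GFP (4.18-fold lower), and EIF2S2, a subunit of the initiation factor eIF2, read 6.67, 6.54 and 6.44 with Ad-BRG1 against 8.25, 8.28 and 8.17 with Ad-GFP (3.22-fold lower). These had tight replicates in both groups. DPPA2, a gene of early embryo and germ cells, fell 3.19-fold, the mesoderm factor MESP1 3.08-fold, the ubiquitin ligase TRIM7 3.11-fold and the calcium-binding protein sorcin, SRI, 3.04-fold. TMEM145, RFESD, SAYSD1, QTGAL, SLC68A1 and PLCXD1 fell 3.10-fold to 3.65-fold, and the cilium transport gene WDR35 fell 3.53-fold by its brightest probe, with another not called (0.04). A last set of large falls had widely spread Ad-BRG1 arrays. NAA15, a subunit of the main N-terminal acetyltransferase, read 6.47, 5.95 and 7.01 with Ad-BRG1 against 8.36, 8.13 and 8.47 with Ad-GFP, the spliceosomal helicase DDX46 7.31, 6.77 and 7.70 with Ad-BRG1 against 8.85, 8.74 and 9.02 with Ad-GFP, SRFBP1 7.02, 6.31 and 7.07 with Ad-BRG1 against 8.43, 8.21 and 8.53 with Ad-GFP, ZNF25 6.88, 6.60 and 7.3 with Ad-BRG1 against 9.07, 8.82 and 9.16 with Ad-GFP and ANKRD20A1 6.88, 6.59 and 7.15 with Ad-BRG1 against 8.80, 8.69 and 8.63 with Ad-GFP. In all 5, Ad-BRG1 replicate 2 was the lowest array and replicate 3, the array that stood apart on the second principal component, the highest. The Ad-GFP arrays of NAA15, DDX46, SRFBP1 and ZNF25 had the same order over a narrower range, and those of ANKRD20A1 did not. Without Ad-BRG1 replicate 3 the log2 differences of the 5 genes were -2.11, -1.83, -1.72, -2.28 and -1.98. Without Ad-BRG1 replicate 2 they were -1.58, -1.37, -1.34, -1.92 and -1.70, against -1.84, -1.61, -1.59, -2.09 and -1.84 with all arrays.

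Genes of the remodelling complex itself did not rise. Of 28 SWI/SNF subunit genes 21 were tested, 0 called higher and 8 lower (0% and 38.1%, against 26.7% and 30.3% of all genes, median -0.15). ARID1A, a DNA-binding subunit of the canonical BAF form, read 11.21, 11.34 and 11.35 on the Ad-BRG1 arrays and 12.11, 12.10 and 12.26 on the Ad-GFP arrays (1.81-fold lower). BICRAL and BICRA, subunits of the noncanonical form, read 8.27, 8.38 and 8.17 with Ad-BRG1 against 9.61, 9.73 and 9.79 with Ad-GFP (2.71-fold lower) and 7.45, 7.43 and 7.44 with Ad-BRG1 against 8.07, 8.07 and 8.31 with Ad-GFP (1.64-fold lower). ARID2, of the polybromo form, fell by 0.68 on the log2 scale, and the core subunits SMARCC1 and SMARCC2 were not called (-0.10 and -0.15). Of 53 Polycomb and other repressor genes 44 were tested, 15 called lower and 6 higher (34.1% and 13.6%, against 30.3% and 26.7% of all genes, median -0.11). The Polycomb methyltransferase EZH2 and its partner EED were not called (-0.13 and 0.20), while SUZ12 was lower (-0.59). The maintenance DNA methyltransferase DNMT1 read 11.10, 11.23 and 11.32 with Ad-BRG1 against 11.96, 11.97 and 12.13 with Ad-GFP (1.75-fold lower), MTA1 of the NuRD complex fell 2.13-fold, and the NuRD remodeller CHD4 rose 1.92-fold, at 12.22, 12.08 and 12.11 with Ad-BRG1 against 11.30, 11.09 and 11.19 with Ad-GFP.

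Developmental transcription factors changed at about the rate of all genes. Of 77 listed 43 were tested, 12 called higher and 10 lower (27.9% and 23.3%, against 26.7% and 30.3% of all genes), with a median of -0.02. SOX13 was the only one 2-fold or more higher, at 7.87, 7.76 and 7.94 on the Ad-BRG1 arrays and 5.98, 5.92 and 5.93 on the Ad-GFP arrays (3.76-fold), and SIX5 the only one 2-fold or more lower (2.12-fold). The 16 housekeeping genes of a list of 20 that were tested had a median of -0.03, with 5 called higher and 3 lower (31.25% and 18.75%). EEF1A1 and HPRT1 were not called (-0.01 and -0.13), the brightest probe of GAPDH was not called (0.09) and another was higher (0.27), and POLR2A, the largest subunit of RNA polymerase II, was 1.59-fold lower.

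The virus difference was read again on the 6 arrays of cells given IFNγ, which share no array with the untreated comparison, although the fit shares its estimate of the spread. Of the 500 genes 2-fold or more higher without IFNγ, 494 were called higher with Ad-BRG1 on the IFNγ arrays as well, where 28.3% of all genes were, and 363 were again 2-fold or more higher (5.56% of all genes). None was called in the opposite direction. Of the 228 genes 2-fold or more lower, 202 were called lower, where 32.8% of all genes were, 145 by 2-fold or more (2.85% of all genes), and 1, the chymotrypsin-like protease gene CTRL, was called higher (0.62 with IFNγ and -1.07 without). CRYAB differed by 7.35 on those arrays and 7.46 on the untreated ones, ACTG2 by 5.88 and 6.06, JUN by 3.62 and 3.27, SYP by -3.25 and -2.80, and MYC by -1.5 and -1.22. List counts on the IFNγ arrays stand beside 28.3% of all genes called higher and 32.8% lower. Of 25 tested contractile genes 21 were called higher and 2 lower, and of 37 lysosome genes 26 higher and 4 lower. Of 40 MYC and ribosome genes 33 were called lower and 1 higher, and of 47 replication genes 31 lower and 5 higher. Of 47 mitosis genes 11 were called higher and 8 lower (median 0.15, against -0.12 in untreated cells). Of 43 developmental factors 12 were called higher and 16 lower. Of 36 Notch and Wnt genes 13 were called higher and 13 lower (median -0.06, against 0.11 in untreated cells). No lean is read from the counts of these last lists.

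The interaction term, the difference with IFNγ minus the difference without it, was called for 842 genes (8.15%). Among the 500 rises it was called for 91, of which 30 were larger and 61 smaller with IFNγ, and among the 228 falls for 30, of which 6 were larger and 24 smaller. These genes were chosen by their untreated difference, which enters the interaction with a minus sign. The choice alone favours smaller differences with IFNγ, so no conclusion is drawn from that excess. Over all genes, a called interaction was positive for 4.32% and negative for 3.83%. IFI27, an interferon-induced gene, had the largest interaction of the named genes: it read 7.93, 8.0 and 7.85 on the untreated Ad-BRG1 arrays and 5.49, 5.05 and 5.46 on the untreated Ad-GFP arrays, and its virus difference was 5.95 with IFNγ and 2.60 without. LFNG and CYP51A1 went the other way, with virus differences of 0.36 and -0.01 with IFNγ and 1.61 and 1.02 without. PSMB10 was higher with Ad-BRG1 on the IFNγ arrays (0.53) and lower on the untreated ones (-0.58), and so was IFI35 (0.28 with IFNγ and -0.45 without). The widely spread falls were smaller with IFNγ, at -0.77 for NAA15, -0.48 for DDX46 and -0.39 for SRFBP1, with interactions not called (limma adjusted p = 0.0802, 0.0538 and 0.0537). These falls were also chosen by the untreated difference.

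**Figure D5:**
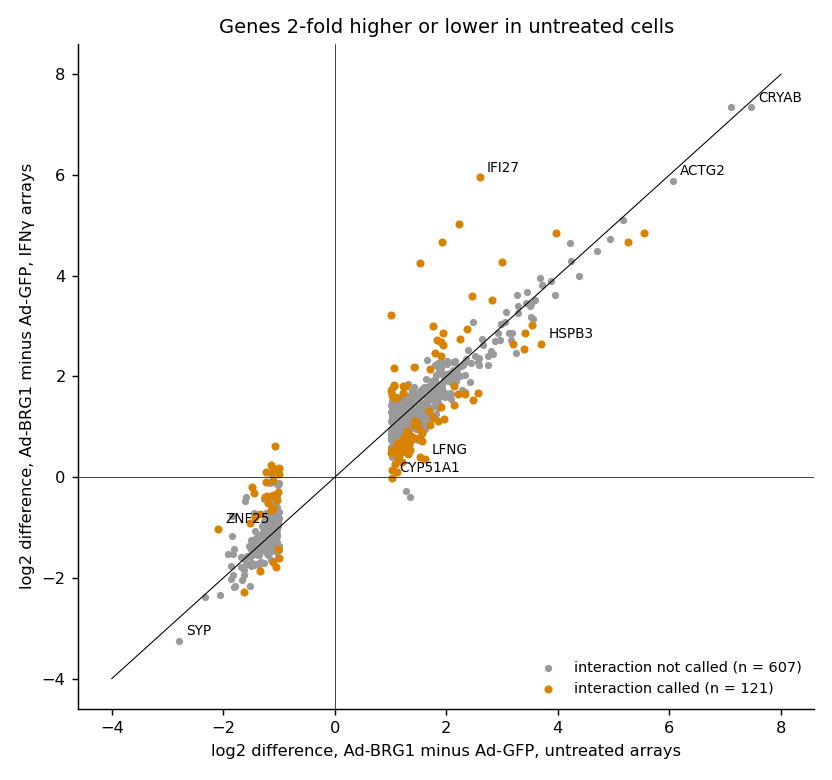
Log2 difference, Ad-BRG1 minus Ad-GFP, of the 728 genes 2-fold or more higher or lower in untreated cells, on the untreated arrays (x axis) and on the IFNγ arrays (y axis), with the line of equal difference. Orange marks the 91 rises and 30 falls whose interaction was called, among which IFI27 lies farthest above the line, and most other genes lie near it.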

How the data were processed

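RNA of SW-13 cells infected with Ad-BRG1 or Ad-GFP, without or with IFNγ, was hybridised to Illumina Human-WG6 BeadChips, 3 arrays per group. The methods call the replicates biological, but no label ties them to separate cultures, so p-values measure the spread between arrays. The deposited intensity values are linear probe intensities that the authors exported from BeadStudio (version not given in the sources used here) without background subtraction or normalization. Each array also has a deposited detection p-value, the rank of a probe against negative control beads. A second deposited table holds intensity after average normalization and served as an alternative. No per-sample column was left without a sample.

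Arrays were corrected with neqc of limma 3.58.1 (R 4.3.3; normexp with negative controls inferred from the detection p, quantile normalization, offset 16, log2). A probe was kept at a detection p under 0.05 on all 3 arrays of at least 1 of 4 groups. Of 48803 probes 27578 had 1 gene symbol in the platform annotation, 13 several and 21212 none; only probes with 1 symbol were named, and the kept probe with the highest mean over 12 arrays stood for its gene. A linear model (lmFit, eBayes) on all 12 arrays with 1 mean per group gave log2 differences, Ad-BRG1 minus Ad-GFP, with two-sided p-values adjusted by Benjamini-Hochberg over 10333 genes. It had 8 residual and 4.24 prior degrees of freedom. Called means an adjusted p under 0.05; 2-fold genes are called and reach 2-fold. Quantile normalization makes differences relative to the bulk of genes. In groups with no array above background, folds were taken against the lowest detected value of each array (5.35 to 5.43). Near-identical genes can share a probe's signal.

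Named were the 16 largest rises and the 24 largest falls without overlap between groups, up to 3 called members of each list in each direction, SMARCA4, SMARCA2 and IRF1, and list members not called. Other called genes that the text names were chosen after their values were seen. The members and lists were chosen with earlier results of these data known. Lists were counted, with no set test. Promoters came from RefSeq (GRCh38.p14). The fit was tested on simulated data. Alternatives covered background correction, normalization, detection filter, probe choice, arrays fitted, a replicate block and leaving out each untreated array. Deviations from the group mean correlated at r = 0.098, 0.127 and 0.278 between untreated Ad-BRG1 and Ad-GFP arrays sharing a replicate number. Between arrays of different number r was -0.23 to 0.138, so a shared replicate effect is possible. The main fit did not use the numbers as pairs, and the replicate block was an alternative. Python 3.11.15 with matplotlib 3.10.9 made the plots.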

Additional observations from a re-analysis of the deposited data

Results flagged for a closer look

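Of the genes named, 31 had a virus difference that differed between untreated and IFNγ cells in a test of the difference itself (limma interaction, adjusted p under 0.05). This count was 17 to 53 on leaving out 1 untreated array and 54 with quantile normalization without background correction. Values below are the interaction on the log2 scale, the difference with IFNγ minus the difference without it. The genes were named mainly by their untreated difference, a choice that favours smaller differences with IFNγ. Among genes higher with Ad-BRG1 in untreated cells, the difference was larger with IFNγ for IFI27 (3.35), NUPR1 (0.94), LY96 (0.88), SOX13 (0.77), S100A13 (0.58), MT1G (0.54) and LAMB1 (0.48). It was smaller for LFNG (-1.26), HSPB3 (-1.05), CYP51A1 (-1.03), HBEGF (-0.89), CDKN1C (-0.84), INA (-0.83), WWTR1 (-0.75), GPNMB (-0.69), ADGRG1 (-0.59), NES (-0.56), CDKN1A (-0.51) and KLF2 (-0.41), although all of these but CYP51A1 were still called higher with IFNγ.

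Among genes lower with Ad-BRG1 in untreated cells, the fall was deeper with IFNγ for PLCXD1 (-0.65), SPRY2 (-0.50), HEY1 (-0.49) and CCN2 (-0.39). It was shallower for ZNF25 (1.07), CEBPB (0.84) and CCND1 (0.49), which were still called lower, and KIF14 (1.4), CDK6 (1.05) and AEBP2 (0.74) were not called with IFNγ. PSMB10 (1.12) and IFI35 (0.72) were called higher with IFNγ.

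All 31 kept their sign in each of the 12 alternatives that gave them an interaction, except that MT1G and WWTR1 had a value in only 11 of them. The size was not always kept, since the smallest values were -0.0034 for CDKN1A (adjusted p = 0.985), -0.25 for CDKN1C, -0.26 for INA and -0.19 for WWTR1. The interaction was called in every alternative for 15 genes: ADGRG1, CCND1, CEBPB, CYP51A1, GPNMB, HBEGF, HSPB3, IFI27, IFI35, LFNG, LY96, NUPR1, PSMB10, SOX13 and SPRY2.

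Outside the named genes, 2859 probes without a gene name passed the detection filter, and 73 of them were called 2-fold or more higher with Ad-BRG1 in untreated cells, 11 of which were on no Ad-GFP array above background, against 61 that were 2-fold or more lower. They are not described further.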

How the results depend on the processing

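The counts of genes called higher (2764) and lower (3136) stayed within 1.5 times in all 13 alternatives, and 46.4% to 47.9% of calls were higher. Average normalization without background correction gave 218 genes 2-fold or more higher, 74 lower and 288 also called the same way with IFNγ, against 500, 228 and 696, and quantile normalization without background correction gave 223, 71 and 291. Leaving out 1 untreated array gave 2554 to 2662 genes called higher, 2804 to 3000 lower, 486 to 517 and 216 to 266 at 2-fold, and 679 to 727 called the same way with IFNγ. The count of named genes with a called interaction was 31. Its alternatives were chosen after seeing the data and gave 54 with quantile normalization without background correction, and 17 to 53 on leaving out 1 array (17, 19 and 53 without Ad-BRG1 replicate 1, 2 or 3, and 20, 21 and 19 without Ad-GFP replicate 1, 2 or 3). The cause was not tested. With the replicate block, 2823 genes were called higher, 3209 lower and 701 the same way with IFNγ, and 43 named genes had an interaction. Of 199 called named genes, 13 lost the call in at least 1 alternative: MMP24, VEGFA, ASAH1, CNN2, PKP4, YWHAZ, SRF, YAP1, FOXM1, ALCAM, CENPE, ESAM and SDF2L1. ATP5MC1 reversed with the mean of all kept probes (0.0551, adjusted p = 0.492, against -0.40). Its probes disagreed, with the brighter called lower (-0.40) and the other higher (0.51). With a detection p under 0.01 in an untreated group, 16 interferon genes against 25 and 8 Notch and Wnt genes against 14 were called higher. With 3 arrays a side and a median SE of 0.09, small differences near the threshold are the least certain, and levels near background, where 103 of the 500 rises start, have only bounds.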
